A study of Mus musculus with 40 samples.

Results

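Liver gene expression was compared between ovariectomized C57BL/6J females carrying an estradiol pellet and ovariectomized females carrying a placebo pellet. These were 10 of the 40 mice of the series, chosen by their labels: animals 33 to 37 received estradiol and animals 16 to 20 received placebo. C57BL/6J is an inbred laboratory mouse strain. Both groups had their ovaries removed at 8 weeks of age, received the pellet at 12 weeks and gave their livers at 14 weeks, having fasted for 12 h. Their chow contained 4% fat. The pellet held 0.5 mg of estradiol for release over 21 days, with a stated plasma level of 300 pg/ml, and placebo mice therefore had neither ovaries nor added hormone. Used beside them were castrated males with the same estradiol pellet (animals 41 and 43 to 46), castrated males with placebo (animals 24 to 28) and intact females (animals 1 to 5), all of the same strain, with 5 mice in each group. Ovariectomized females with a 5 mg dihydrotestosterone pellet (animals 50 to 54) share the placebo females as their control. Intact males (animals 8 to 12) and castrated males with dihydrotestosterone (animals 59 to 63) enter the fit and are named only where the spread or an index is given. All gonadectomized groups, male and female, had the same ages at surgery, pellet and death. Intact mice also gave their livers at 14 weeks, and whether they had pellets is not stated. Plasma estradiol of each animal was not among the data used here.

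Estradiol acts in the liver mainly through estrogen receptor alpha, a ligand-activated transcription factor encoded by Esr1. The bound receptor acts on genes with estrogen response elements, which are paired half-sites, and also acts through other DNA-bound factors. In rodents estrogen further changes the pattern of growth hormone release from the pituitary, and that pattern sets many of the differences between female and male liver through the transcription factor STAT5. Estradiol in mice is known to restrain hepatic fat synthesis, and at high doses it changes bile formation, the binding proteins of steroid and thyroid hormones, and the immune cells of the liver.

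Each liver had its own array of 23574 probes, and each value is the log2 ratio of that liver to a common pool of liver RNA. A value of 0 therefore means the level of the pool, and higher values mean more RNA than in the pool. A probe was called when its adjusted p in limma (Benjamini-Hochberg, over all probes) was under 0.05. Of 23574 probes, 149 were called, which is 0.632%. Of these, 72 were higher with estradiol (0.305%) and 77 were lower (0.327%). The 149 include 96 genes with a name, 0.885% of the 10842 named genes, with 51 higher (0.47%) and 45 lower (0.415%). At an unadjusted p under 0.05 there were 2542 probes. The median difference over all probes was -0.01 on the log2 scale. Leaving out 1 animal at a time gave 22 to 902 called probes, highest without animals 33 (418) and 34 (902), and 19 of the 149 were called in each of the 10 such fits. Estradiol and placebo values did not overlap in 100 of the 149 called probes, while 441 of all probes (1.87%) showed no overlap. The called differences reached 1.5-fold in 89 probes and 2-fold in 37. The labelled sex was checked with the Y-linked gene Eif2s3y, which lay at -6.07 to -5.20 in the estradiol females and -5.27 to -3.82 in the placebo females, against 0.35 to 1.33 in castrated males with placebo. Kdm5d, also Y-linked, averaged -2.94 in the estradiol females and -1.70 in the placebo females. The female groups differed by -1.06 for Eif2s3y and -1.24 for Kdm5d, without a call (adjusted p = 0.0664 and 0.0806 in limma).

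The 5 estradiol livers did not respond alike. For many of the raised genes, animals 35, 36 and 37 lay far above placebo while animals 33 and 34 lay close to it. In 52 of the 72 higher probes, both 33 and 34 lay below each of the other 3 estradiol animals, and in 45 of the 77 lower probes both lay above them. Leaving out animals 33 and 34 gave 1608 called probes (6.82%), of which 1006 were higher (4.27%) and 602 lower (2.55%), and 147 of the 149 were among them. Those animals were left out for their Cyp7b1 values in earlier results of these data, so that this count describes the 3 remaining livers and is no second test. Of the 36 called genes named under the rule, 27 were no longer called without animal 35, 27 without animal 36 and 27 without animal 37.

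The gene with the largest rise under the naming rule was Cxcl13, a chemokine that attracts B cells. Its log2 ratios were 0.05, 0.72, 2.28, 2.83 and 0.37 in estradiol animals 33 to 37, against -0.59, -1.46, -0.91, -0.02 and -1.21 in placebo animals 16 to 20. All 5 estradiol livers lay above all 5 placebo livers, with 35 and 36 far higher than the rest. The difference was 2.09 ± 0.43 (SE), or 4.25-fold, with an adjusted p of 0.015 in limma. Spon1, which encodes the secreted matrix protein F-spondin, measured -0.68, -0.90, 2.04, 1.73 and 1.98 in the estradiol animals and -1.22, -1.32, -1.29, -1.21 and -0.98 in the placebo animals. Here the groups were separated only narrowly at animals 33 and 34, while 35 to 37 stood well above every placebo liver. Mmd2, a membrane protein related to the progestin and adiponectin receptors, measured -0.70, -0.77, 2.10, 1.89 and 2.31 with estradiol and -0.97, -1.14, -1.14, -0.78 and -1.16 with placebo, which repeats that split. Dntt, the DNA polymerase that adds untemplated bases in lymphoid precursors, measured 0.43, -0.31, 2.17, 1.60 and 1.90 with estradiol and -0.58, -1.21, -0.32, -0.57 and -0.89 with placebo. Spon1 rose by 2.04 ± 0.49 (SE), Mmd2 by 2.01 ± 0.45 (SE) and Dntt by 1.87 ± 0.37 (SE), with adjusted p values of 0.039, 0.0275 and 0.0116. Dntt was the only one of 9 measured B cell and lymphoid precursor markers that was called, where 0.885% of all named genes were called. The calls of Spon1 and Mmd2 held in 2 of the 10 fits that each left out 1 animal, those without animal 33 and without animal 34, and the calls of Cxcl13 and Dntt held in 7.

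**Figure D1:**
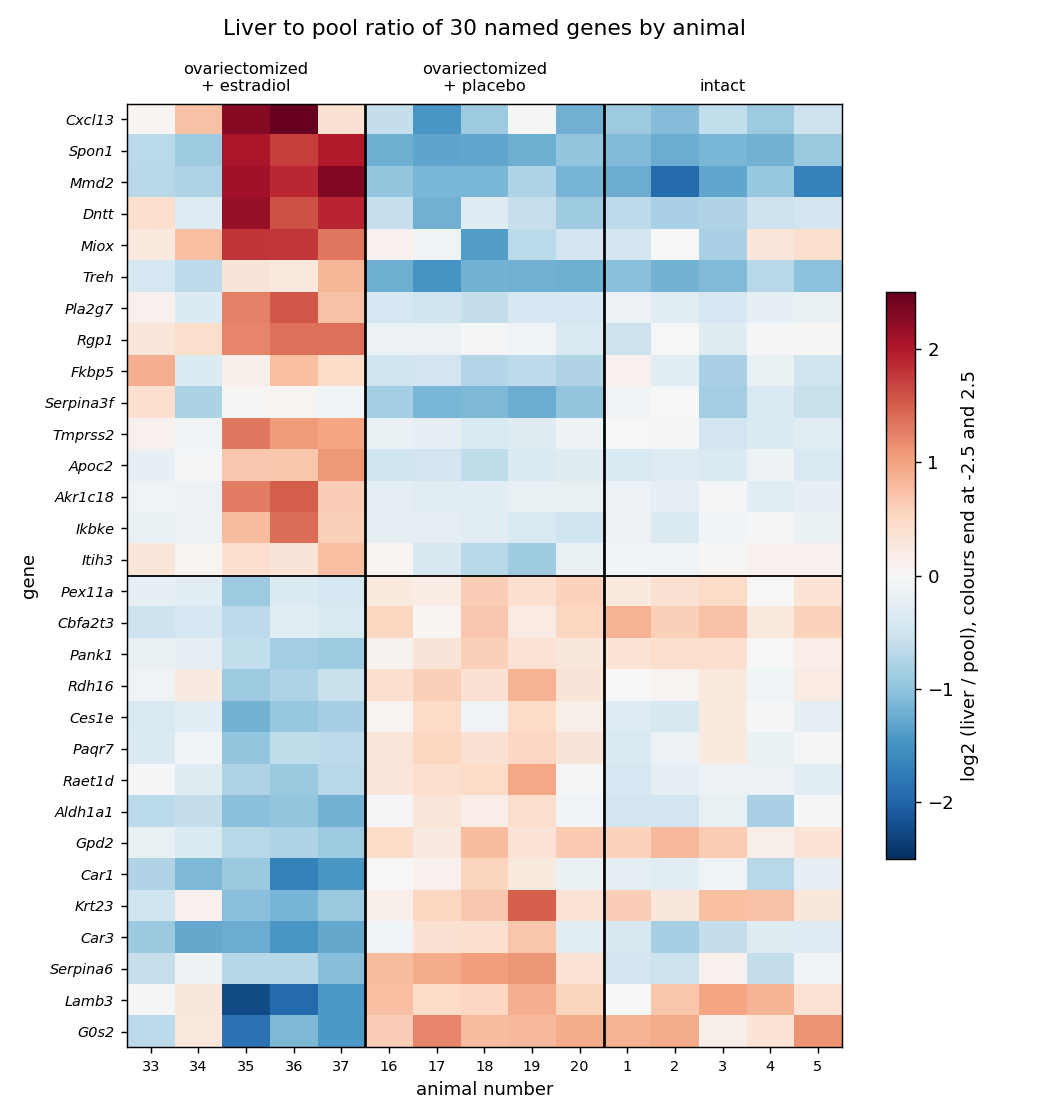
Heat map of log2 liver to pool ratios for the 15 highest and 15 lowest named genes whose groups did not overlap (rows, by difference), in each ovariectomized female with estradiol, ovariectomized female with placebo and intact female (columns, animal numbers). Red is above and blue below the pool. Columns 33 and 34 are paler than columns 35 to 37 for most raised genes, while Car1, Car3 and Aldh1a1 are low in all 5 estradiol animals.

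Miox, the enzyme that opens myo-inositol in its breakdown, rose in a less divided way. It measured 0.23, 0.74, 1.79, 1.77 and 1.32 with estradiol and 0.10, -0.11, -1.39, -0.67 and -0.48 with placebo, without overlap, and its difference of 1.68 ± 0.29 (SE) (adjusted p = 0.00273) stayed called in all 10 fits that left out 1 animal. Treh, which encodes the trehalose-splitting enzyme trehalase, measured -0.45, -0.66, 0.31, 0.26 and 0.83 with estradiol and -1.22, -1.47, -1.18, -1.20 and -1.23 with placebo. All 5 estradiol livers were higher than placebo, and the difference was 1.32 ± 0.31 (SE) (adjusted p = 0.0305). Placebo livers had a narrow range for Treh, apart from animal 17. Apoc2, the activator of lipoprotein lipase carried on triglyceride-rich lipoproteins, measured -0.20, -0.05, 0.68, 0.69 and 1.08 with estradiol and -0.51, -0.48, -0.63, -0.37 and -0.31 with placebo. It rose by 0.90 ± 0.20 (SE) (adjusted p = 0.0275). Apoc2 was the only called gene of 18 measured lipoprotein and sterol export genes, where 0.885% of all named genes were called.

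Cxcl13, Apoc2, Treh and Miox share a short sequence in the 250 bases before their start sites, as searched in the RefSeq promoters of build GRCm38.p6. Of the 15 raised genes under the naming rule, 14 had a promoter there, and these 4 hold the nuclear receptor half-site AGGTCA on either strand. Of the 15 lowered genes 12 had a promoter there, and only Rdh16 held it, as did 14.0% of all 32851 promoters. That share counts promoters, while a gene was counted when any promoter listed for it held the half-site, so the units differ. The palindrome of the estrogen response element (GGTCA and TGACC, 3 bases apart), which can overlap the half-site, was found in 0 of the 14 raised and 0 of the 12 lowered genes and in 0.064% of all promoters. These matches describe the letters only, not binding. The stretches around the half-site are shown 5′ to 3′ on the strand of the gene, with the half-site, or its reverse complement TGACCT, in capitals. They lie at chr5:95956825-95956884 (plus strand), chr7:19678024-19678083 (minus strand), chr9:44673146-44673205 (plus strand) and chr15:89334316-89334375 (plus strand).
Cxcl13: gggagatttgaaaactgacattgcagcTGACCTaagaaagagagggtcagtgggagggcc
Apoc2: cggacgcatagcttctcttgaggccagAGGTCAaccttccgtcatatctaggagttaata
Treh: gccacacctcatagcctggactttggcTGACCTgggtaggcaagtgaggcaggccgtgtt
Miox: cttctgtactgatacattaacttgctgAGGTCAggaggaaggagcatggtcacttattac

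Several raised genes encode serum proteins or respond to steroid hormones. Fkbp5, a co-chaperone of steroid receptors that is induced by glucocorticoids, measured 0.91, -0.34, 0.13, 0.76 and 0.47 with estradiol and -0.50, -0.49, -0.72, -0.66 and -0.74 with placebo. Its highest value was in animal 33, not in 35 to 37, and it rose by 1.01 ± 0.23 (SE) (adjusted p = 0.0275). Serpina3f, a serine protease inhibitor of the antichymotrypsin family, measured 0.41, -0.80, 0.04, 0.08 and -0.07 with estradiol and -0.84, -1.15, -1.12, -1.24 and -0.98 with placebo. Animal 33 was again highest and animal 34 lay just above the highest placebo liver. The difference of Serpina3f was 1.00 ± 0.24 (SE) (adjusted p = 0.0341). Itih3, a heavy chain of the inter-alpha-trypsin inhibitor, measured 0.30, 0.08, 0.42, 0.33 and 0.75 with estradiol and 0.07, -0.40, -0.69, -0.90 and -0.19 with placebo, a difference of 0.80 ± 0.20 (SE) (adjusted p = 0.0492). These were the 2 members called among 19 measured acute phase genes, whose median difference was 0.05, where 0.885% of all named genes were called. Of the 19, 5 had an unadjusted p under 0.05 in limma, all higher, and 2542 of all 23574 probes passed that cut. Akr1c18, which inactivates progesterone, measured -0.09, -0.16, 1.29, 1.51 and 0.61 with estradiol and -0.25, -0.26, -0.29, -0.19 and -0.18 with placebo. Here 33 and 34 lay just above the placebo range, and the difference of 0.87 ± 0.19 (SE) (adjusted p = 0.0245) came from the other 3 livers.

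A few of the called genes were even across the estradiol animals, chosen here after their values were seen. Cobl, an actin nucleator, measured 0.28, 0.44, 0.26, 0.23 and 0.29 with estradiol and -0.32, -0.10, -0.12, -0.12 and -0.41 with placebo, and rose by 0.51 ± 0.08 (SE) (adjusted p = 0.000564). Of the 3 probes of Map1lc3b, which encodes an autophagosome protein, 2 were called, with rises of 0.41 and 0.37 (adjusted p = 0.00566 and 0.0186), and the other differed by -0.10 (adjusted p = 0.834). Nr4a2, an orphan nuclear receptor, measured -0.30, 0.05, -0.33, -0.26 and -0.20 with estradiol and 0.35, 0.22, 0.27, 0.21 and 0.27 with placebo, a fall of 0.47 on the log2 scale (adjusted p = 0.00139). Animal 34 lay nearest to placebo for Nr4a2. The called probes of these 3 genes did not overlap between groups, and their differences were small in size next to Cxcl13 or Spon1.

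Genes of fat metabolism mostly had lower values with estradiol. Of 23 measured genes of fatty acid and triglyceride synthesis, 3 fell (Gpd2, Fads1 and Me1), none rose, 2 had a positive difference, and the median was -0.32. Of 22 measured genes of fatty acid oxidation and ketogenesis, 3 also fell (Cpt2, Pex11a and Ppara), none rose, 2 had a positive difference, and the median was -0.23. Over all probes the median was -0.01 and 10749 of 23574 differences were positive, and 0.415% of all named genes were called lower. Not every gene of fat synthesis fell. Scd3, a stearoyl-CoA desaturase outside these lists that was chosen after its values were seen, was called higher at 1.66 (adjusted p = 0.0499 in limma). Within these lists most values were thus lower for both the making and the burning of fatty acids.

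Gpd2, the mitochondrial glycerol-3-phosphate dehydrogenase of the glycerol phosphate shuttle, measured -0.19, -0.36, -0.70, -0.76 and -0.92 with estradiol and 0.46, 0.23, 0.77, 0.35 and 0.66 with placebo. It had the smallest adjusted p of the named genes together with Cobl, 0.000564, and its difference of -1.08 ± 0.16 (SE) stayed called whichever animal was left out. Fads1, the delta-5 fatty acid desaturase, measured 0.03, 0.13, -0.60, -0.55 and -0.28 with estradiol and 0.51, 0.30, 0.57, 0.51 and 0.18 with placebo. Animals 33 and 34 were the highest of the estradiol group, yet still below all placebo livers, and the difference was -0.67 ± 0.14 (SE) (adjusted p = 0.015). Me1, the malic enzyme that supplies NADPH for lipogenesis, measured -0.16, -0.14, -0.31, -0.45 and -0.60 with estradiol and -0.02, 0.22, 0.33, 0.35 and 0.38 with placebo, a difference of -0.59 ± 0.13 (SE) (adjusted p = 0.0292). Pank1, the first enzyme of coenzyme A synthesis, was lower in all 5 estradiol livers, at -0.91 to -0.18 against 0.09 to 0.59 in the placebo livers (difference -0.88 ± 0.15 (SE), adjusted p = 0.00267).

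Ppara, the nuclear receptor that drives fatty acid oxidation in fasting, measured -0.28, -0.30, -0.69, -0.30 and -0.58 with estradiol and 0.28, 0.26, 0.37, 0.34 and -0.05 with placebo. The groups did not overlap although placebo animal 20 lay well below its group, and the difference was -0.67 ± 0.16 (SE) (adjusted p = 0.0421). Cpt2, the inner carnitine palmitoyltransferase of mitochondria, measured -0.03, -0.02, -0.71, -0.50 and -0.38 with estradiol and 0.12, 0.18, 0.21, 0.40 and 0.28 with placebo. It was only slightly lower in animals 33 and 34 and clearly lower in 35 to 37, with a difference of -0.56 ± 0.11 (SE) (adjusted p = 0.0116). Pex11a, which promotes division of peroxisomes, lay at -0.91 to -0.20 with estradiol and 0.19 to 0.61 with placebo (difference -0.84 ± 0.19 (SE), adjusted p = 0.0242). G0s2, an inhibitor of adipose triglyceride lipase, had the largest fall of the named genes. It measured -0.65, 0.26, -1.84, -1.13 and -1.44 with estradiol and 0.61, 1.22, 0.76, 0.82 and 0.93 with placebo. Its difference was -1.83 ± 0.37 (SE), that is 3.55-fold lower with estradiol (adjusted p = 0.015). G0s2 and Fabp4 were the 2 called members of 15 measured lipid droplet genes, where 0.885% of all named genes were called. These 2 genes moved in opposite directions.

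Genes of hormone transport proteins and of retinoid and carbon dioxide enzymes were also among those that fell. Serpina6 encodes corticosteroid-binding globulin, the serum carrier of glucocorticoids. It measured -0.58, -0.13, -0.71, -0.72 and -1.06 with estradiol and 0.80, 0.92, 1.04, 1.10 and 0.36 with placebo, without overlap, and fell by 1.48 on the log2 scale, with an SE of 0.29 (adjusted p = 0.0115). Serpina7, the thyroxine-binding globulin, measured -0.78, -1.05, -0.02, -0.93 and -0.80 with estradiol and 0.35, 0.93, 0.39, 0.42 and -0.02 with placebo. Animal 35 and placebo animal 20 were both near the pool, so the groups met, and the difference was -1.13 ± 0.25 (SE) (adjusted p = 0.0225). Fkbp5 and Serpina6 were the 2 genes called of 14 measured glucocorticoid-linked genes, 1 in each direction, where 0.885% of all named genes were called.

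Of 8 measured carbonic anhydrases, which interconvert carbon dioxide and bicarbonate, 2 fell, where 0.415% of all named genes were called lower. Car3 measured -0.92, -1.28, -1.24, -1.45 and -1.28 with estradiol and -0.10, 0.38, 0.40, 0.69 and -0.28 with placebo. Car1 measured -0.75, -1.12, -0.92, -1.70 and -1.45 with estradiol and 0.00, 0.11, 0.56, 0.24 and -0.17 with placebo. Both sets of 5 were apart, and animals 33 and 34 did not stand out from the rest of their group. The difference was -1.46 ± 0.30 (SE) for Car3 (adjusted p = 0.0165) and -1.33 ± 0.21 (SE) for Car1 (adjusted p = 0.0013). Car1 is also abundant in red cells and Car3 in fat. None of the other 8 erythroid markers measured was called lower, and that list had a median of 0.15. Of the 5 measured adipocyte markers Car3 fell, Fabp4 rose by 2.04 (adjusted p = 0.0229), and Lep, Plin1 and Retn differed by -0.09, -0.03 and 0.04 with no call. That list, with Car3 and Fabp4 in it, averaged -0.34, -0.33, 0.14, 0.12 and 0.14 in animals 33 to 37, against -0.22 to -0.08 in the placebo livers. Fabp4 alone measured -0.76, -0.95, 2.49, 2.36 and 1.94 in those animals. The split of the average therefore does not describe the other markers. The part of fat cells or red cells in these differences was not tested. Aldh1a1, a retinal dehydrogenase, measured -0.68, -0.59, -1.04, -0.99 and -1.18 with estradiol and -0.03, 0.31, 0.17, 0.43 and -0.07 with placebo, a difference of -1.06 ± 0.18 (SE) (adjusted p = 0.00266). Rdh16, a retinol dehydrogenase, measured -0.08, 0.23, -0.91, -0.76 and -0.56 with estradiol and 0.40, 0.60, 0.38, 0.86 and 0.32 with placebo, a difference of -0.93 ± 0.21 (SE) (adjusted p = 0.0242). They were the 2 genes called of 16 measured retinoid genes, of which 2 had a positive difference.

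Structural genes were among the lowered ones as well. Lamb3, a chain of the basement membrane protein laminin, measured -0.05, 0.28, -2.23, -1.94 and -1.43 with estradiol and 0.76, 0.49, 0.51, 0.90 and 0.55 with placebo. Its difference of -1.72 ± 0.37 (SE) (adjusted p = 0.0206) was mostly that of animals 35 to 37. Krt23, a keratin and one of 4 measured bile duct markers, measured -0.49, 0.10, -1.05, -1.17 and -0.93 with estradiol and 0.14, 0.54, 0.68, 1.5 and 0.35 with placebo. It differed by -1.35 ± 0.25 (SE) (adjusted p = 0.00566) and was the only duct marker called. Krt19, the defining duct keratin, differed by -0.14 (adjusted p = 0.225). All 4 duct markers had a negative difference, with a median of -0.19, and 2 had an unadjusted p under 0.05, as had 2542 of all 23574 probes. Their average, Krt23 included, lay at -0.43 to -0.07 with estradiol and 0.01 to 0.60 with placebo, without overlap. Krt23 by itself did not overlap either, so this average does not describe the other duct markers. The part of duct cells in the fall of Krt23 was not tested. Cbfa2t3, a transcriptional corepressor, was even across the estradiol livers at -0.66 to -0.28, against 0.05 to 0.68 in placebo livers (difference -0.86 ± 0.14 (SE), adjusted p = 0.00136). The remaining genes under the naming rule were Pla2g7, an enzyme that degrades platelet-activating factor (difference 1.14), Rgp1 (1.11), the protease gene Tmprss2 (0.92), the kinase gene Ikbke (0.81), Raet1d (-0.98), the membrane progestin receptor gene Paqr7 (-0.96) and the carboxylesterase gene Ces1e (-0.94), all without overlap. Amacr, a racemase of bile acid synthesis, was the only gene called of 18 measured bile acid genes, at -0.33. In all, 13 of the 33 gene lists held a called member and 20 held none, where 0.885% of all named genes were called. The same gene can count in several lists, as Car1, Car3 and Fabp4 do.

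The receptors themselves did not differ detectably. Esr1, the estrogen receptor alpha gene, measured -0.02, 0.21, -0.20, 0.02 and 0.00 with estradiol and -0.01, 0.13, -0.18, -0.18 and 0.16 with placebo, a difference of 0.02 ± 0.12 (SE) with an adjusted p of 0.998. The growth hormone receptor gene Ghr differed by -0.01 ± 0.23 (SE) (adjusted p = 0.998) and Igf1, the growth factor it controls, by 0.26 ± 0.18 (SE) (adjusted p = 0.692). Of 23 measured estrogen-linked genes, 15 of the growth hormone axis, 20 known female-biased and 19 known male-biased liver genes, 0 were called in limma, where 0.885% of all named genes were called, so that counts of 0 in lists of this size are near that share. At an unadjusted p under 0.05 there were 5 estrogen-linked genes, all higher, 2 of the growth hormone axis, 5 female-biased and 5 male-biased genes. Of all 23574 probes, 2542 were under that cut.

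Some uncalled genes of steroid metabolism and sex-biased expression nevertheless separated the groups evenly. Cyp17a1, the steroid 17-hydroxylase and lyase, measured 1.21, 0.98, 1.15, 1.16 and 1.22 with estradiol and -0.22, -0.68, -0.04, 0.08 and 0.09 with placebo. The 5 estradiol values lie close together and above every placebo value and every intact female (-0.27 to 0.79). The difference was 1.30 ± 0.44 (SE), with an adjusted p of 0.184 in the fit to all 40 arrays, in which the groups share an estimate of the spread. With only these 10 arrays in the fit, the SE was 0.13 and the adjusted p 0.00685. Elovl3, a male-biased elongase of very long fatty acids, measured -2.31, -2.87, -3.14, -2.77 and -2.53 with estradiol and -1.59, -1.54, -1.41, -1.45 and -1.60 with placebo, without overlap. Its difference was -1.21 ± 0.41 (SE), with an adjusted p of 0.187 over 40 arrays and 0.00685 over the 10. Cux2, a female-biased repressor of male-biased genes in mouse liver, was chosen after its values were seen. It measured 0.64, 0.63, 0.42, 1.19 and 0.67 with estradiol and -0.50, -0.23, -0.42, -0.18 and -0.26 with placebo, a difference of 1.03 ± 0.31 (SE) with an adjusted p of 0.114 over 40 arrays and 0.00893 over 10. In the fit to the 10 arrays alone 55 probes were called, 15 higher and 40 lower, and 34 of them belong to the 149. Of the 36 called genes named under the rule, 11 kept their call in that fit, all of them lower with estradiol. None of the raised genes kept it. The adjusted p in limma was then 0.152 for Cxcl13, 0.207 for Spon1, 0.255 for Mmd2, 0.114 for Dntt and 0.0791 for Miox. Hsd3b5, a male-biased steroid dehydrogenase, was far below the pool in both groups, at -4.52 to -3.98 with estradiol and -4.11 to -3.60 with placebo. It differed by -0.38 ± 0.73 (SE) (adjusted p = 0.969), and its other probe by -0.15.

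**Figure D2:**
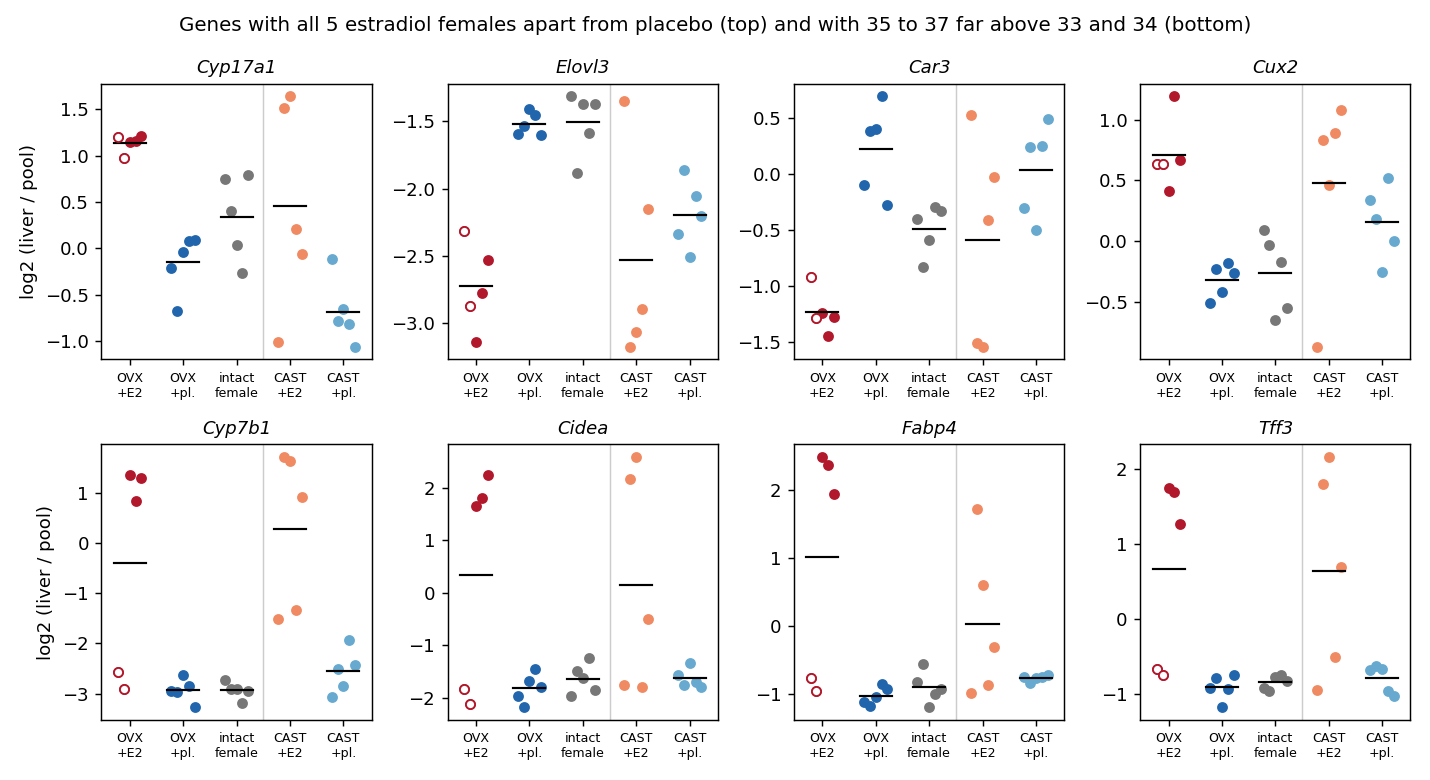
Log2 liver to pool ratios of 8 genes in single livers (points) with group means (lines), for ovariectomized females with estradiol (OVX +E2) or placebo (OVX +pl.), intact females, and castrated males with estradiol (CAST +E2) or placebo (CAST +pl.). Open points are animals 33 and 34. In the top row all 5 estradiol females lie apart from placebo, and in the bottom row animals 35 to 37 lie far above 33 and 34.

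A wide split within the estradiol group was seen in several genes that lie near the placebo level in animals 33 and 34. Not every gene of wide spread had it. Sema3e and Stard6 had larger SDs in that group (3.32 and 2.85) than Cyp7b1 (2.16). For both, animal 37 (0.44 and -0.17) also lay within the placebo range. Cyp7b1, the oxysterol and steroid 7-hydroxylase and a male-biased gene, measured -2.57, -2.92, 1.35, 0.84 and 1.31 in animals 33 to 37, against -2.95, -2.96, -2.64, -2.86 and -3.27 in the placebo animals. Animal 34 lay within the placebo range and animal 33 just above it. The last 3 estradiol values lie far above the first 2, and the difference of 2.54 ± 0.68 (SE) had an adjusted p of 0.0695. Cidea, a lipid droplet protein typical of brown fat, measured -1.84, -2.12, 1.65, 1.80 and 2.24 with estradiol and -1.97, -2.18, -1.68, -1.46 and -1.80 with placebo. The genes named from here to the end of the paragraph, Cidea included, were chosen after their values were seen, except Fabp4. Fabp4, the fatty acid binding protein of adipocytes and macrophages, measured -0.76, -0.95, 2.49, 2.36 and 1.94 with estradiol and -1.12, -1.17, -1.04, -0.85 and -0.93 with placebo, and was called at 2.04 ± 0.45 (SE) (adjusted p = 0.0229). Corin, a protease that activates atrial natriuretic peptide, measured -0.12, -0.51, 2.44, 1.61 and 1.80 with estradiol and -1.05, -1.41, -0.38, -0.58 and -1.52 with placebo (difference 2.03 ± 0.47 (SE), adjusted p = 0.0292). In both genes animals 35 to 37 lay above every placebo liver by more than the whole placebo range. Scd3, a stearoyl-CoA desaturase, measured -0.58, -0.57, 2.18, 1.94 and 1.99 with estradiol and -0.57, -0.54, -1.06, -0.72 and -0.45 with placebo (difference 1.66 ± 0.42 (SE), adjusted p = 0.0499). Animals 33 and 34 lay within the placebo range for Scd3. Tff3, a secreted trefoil peptide, measured -0.66, -0.74, 1.75, 1.69 and 1.27 with estradiol and -0.92, -0.79, -1.18, -0.93 and -0.75 with placebo, with an adjusted p of 0.0619. Socs2, an inhibitor of growth hormone signalling, measured -0.17, -0.60, 1.61, 1.36 and 1.07 with estradiol and -0.58, -0.78, -0.49, -0.82 and -1.20 with placebo, and its adjusted p was 0.0908. Its other 2 probes differed by 1.25 and 1.08. Krt79 and Chst8, a keratin and a sulfotransferase, lay at -1.11 to 2.45 and -1.35 to 2.53 over the estradiol group, against -1.13 to -0.92 and -1.11 to -0.90 over the placebo group.

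Across all probes, 79 had an SD of at least 1 log2 unit within the estradiol females, against 14 in the placebo females and 8 in the intact females. Castrated males with estradiol had 46 such probes, and castrated males with placebo had 15. Ovariectomized females and castrated males with dihydrotestosterone had 40 each, and intact males had 61, so that a high number was not limited to estradiol. The 79 probes had a median SD of 1.24 in the estradiol females that selected them. Their median SD was 0.826 in castrated males with estradiol and 0.258 in castrated males with placebo, 2 groups that played no part in the selection, and 66 of the 79 varied more in the castrated males with estradiol. Cidea shows this in single animals: castrated males 41, 43, 44, 45 and 46 with estradiol had -1.75, 2.18, 2.59, -1.79 and -0.50, against -1.79 to -1.33 in castrated males with placebo. Spon1 in the same order had -1.28, 2.18, 2.63, -0.63 and 0.63 with estradiol, against -1.30 to -0.91 with placebo. Animals 43 and 44 were high for both genes and 41 and 45 were low.

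Markers of macrophages and neutrophils were also higher in animals 35 to 37. The 10 macrophage markers averaged -0.18, -0.30, 1.11, 1.72 and 0.45 in estradiol animals 33 to 37, against 0.07, -0.47, -0.07, -0.35 and -0.44 in placebo animals 16 to 20. Animals 35 to 37 lay above every placebo liver, and 33 and 34 lay within the placebo range. Of the 10 markers 9 had a positive difference, with a median of 0.81, and 0 were called over all 5 animals in limma, with 9 at an unadjusted p under 0.05. That cut was passed by 2542 of all 23574 probes. Without animals 33 and 34, which had the lowest averages of the estradiol group, 9 of the 10 were called, against 6.82% of all probes. That count describes the livers that remain and is no second test. Marco, a scavenger receptor of macrophages, measured -1.38, -0.05, 2.19, 3.15 and 0.36 with estradiol and 0.76, -2.11, -0.81, -1.87 and -1.26 with placebo. Adgre1, a surface receptor that defines mouse macrophages, measured -0.26, -0.60, 1.58, 2.73 and 0.48 with estradiol and -0.10, -0.78, -0.08, -0.27 and -1.04 with placebo. Cd68, a lysosomal macrophage marker, lay at -0.14 to 0.10 with estradiol and -0.19 to 0.15 with placebo, with no such split. The 7 neutrophil markers averaged -0.22, -0.22, 0.62, 0.94 and 0.66 with estradiol and -0.18, -0.15, -0.24, -0.21 and -0.19 with placebo, with 6 positive differences, a median of 0.67 and 0 calls in limma (4 at an unadjusted p under 0.05). Without animals 33 and 34, again the lowest of the estradiol group, 4 of the 7 were called, which likewise only describes the livers that remain. Prtn3, the neutrophil proteinase 3, was chosen after its values were seen and was called at 1.48 ± 0.36 (SE) (adjusted p = 0.0425). The 8 markers of T and NK cells had a median difference of 0.08 and 0 calls in limma, with 1 at an unadjusted p under 0.05. Dntt, Pla2g7, Ikbke, Fabp4, Spon1 and Mmd2 were likewise lower in 33 and 34 than in 35 to 37, Cxcl13 was highest in 35 and 36, and the part of immune cells in their rise was not tested. In whole liver, more cells of a type and more RNA per cell cannot be told apart.

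**Figure D3:**
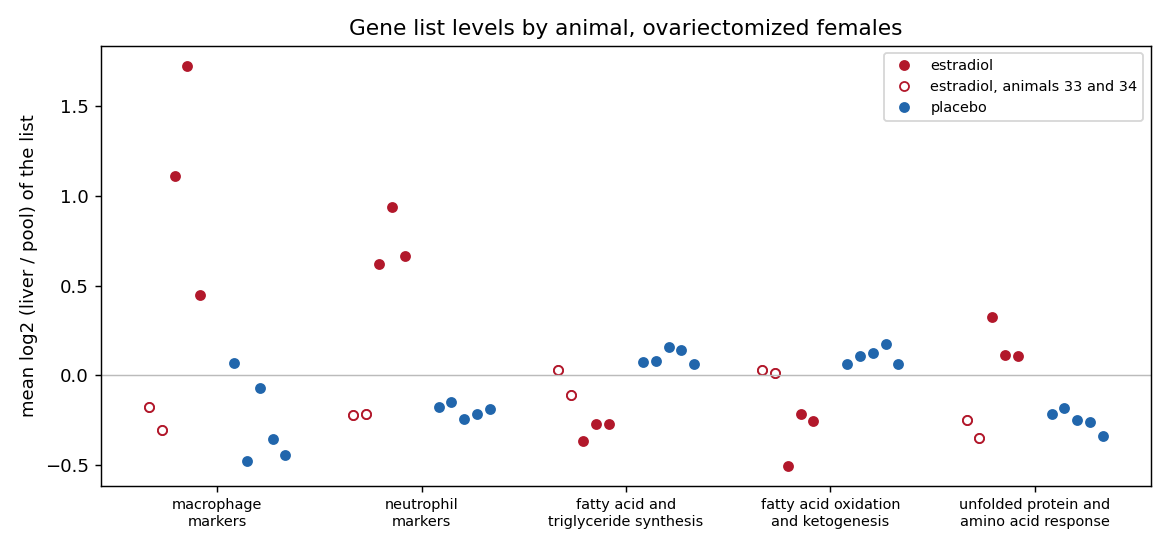
Mean log2 liver to pool ratio over the measured genes of 5 lists in single ovariectomized females with estradiol (red, animals 33 and 34 open) and placebo (blue). Macrophage markers reach 1.72 in animal 36, and both lipid lists lie below placebo in animals 35 to 37.

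Other gene lists divided the estradiol animals in the same way. Fatty acid and triglyceride synthesis genes averaged 0.03, -0.11, -0.36, -0.27 and -0.27 with estradiol and 0.08, 0.08, 0.16, 0.14 and 0.06 with placebo. Fatty acid oxidation genes averaged 0.03, 0.02, -0.50, -0.21 and -0.25 with estradiol and 0.06, 0.11, 0.13, 0.18 and 0.07 with placebo. In both lists every estradiol liver lay below every placebo liver, by little in 33 and by more in 35 to 37. Genes of the unfolded protein and amino acid response averaged -0.25, -0.35, 0.33, 0.11 and 0.11 with estradiol and -0.21, -0.18, -0.25, -0.26 and -0.34 with placebo. Of their 16 measured members 14 had a positive difference, with a median of 0.22, and 0 were called in limma. At an unadjusted p under 0.05 there were 6 of them, and 2542 of all 23574 probes. Asns, the asparagine synthetase of that list, was chosen after its values were seen. It measured -1.26, -1.60, -0.09, 0.23 and -0.35 with estradiol and -1.37, -1.53, -1.64, -1.46 and -1.49 with placebo. A clock index, the mean of Nr1d1, Dbp and related genes minus that of genes of opposite phase, lay at 0.17, 0.32, -0.16, -0.21 and -0.33 in animals 33 to 37, against 0.08, 0.30, 0.18, 0.25 and -0.45 in placebo animals 16 to 20. It also separated 33 and 34 from the other 3. Nr1d1 differed by -0.31 ± 0.22 (SE) (adjusted p = 0.724) and Dbp by -0.07 ± 0.09 (SE) (adjusted p = 0.915). With the index as a covariate 135 probes were called.

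Castrated males given the same pellet share no animal with the female comparison, although both use the same pool and the same estimate of spread. There estradiol called 278 probes (1.18%), 174 higher (0.738%) and 104 lower (0.441%). Leaving out 1 male gave 69 to 322, with 69 without placebo male 24 and 84 without estradiol male 46. Of the 149 probes called in females, 140 (94.0%) differed in the same direction in castrated males, against 64.2% of all probes. A total of 35 were called in both sexes with the same direction, which is 23.5% of the female list and 12.6% of the male list, and 0 in opposite directions. The median size of the difference of the 149 was 0.66 in the females that selected them and 0.35 in castrated males. Gpd2 fell in both, with differences of -1.08 in females and -0.96 in castrated males (adjusted p = 0.00269 in the males). Serpina3f rose in both, by 1.00 in females and 1.15 in castrated males (adjusted p = 0.0105). Treh rose by 1.32 in females and 1.33 in castrated males (adjusted p = 0.0213), and Mmd2 by 2.01 and 1.86 (adjusted p = 0.0334). Cyp7b1 was called in castrated males, at 2.85 (adjusted p = 0.0289), and not in females.

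**Figure D4:**
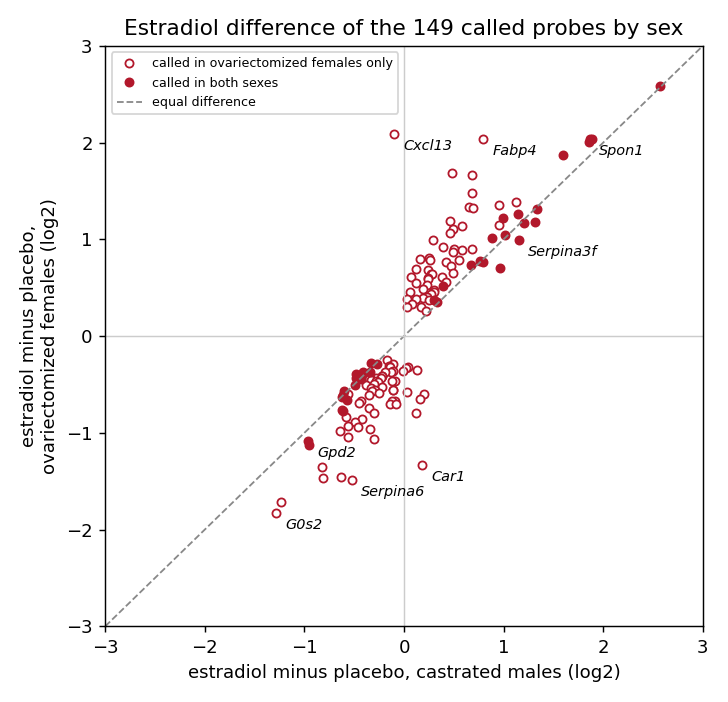
Each point is 1 of the 149 probes called in ovariectomized females, with the estradiol minus placebo difference of castrated males (x axis) and of ovariectomized females (y axis), both on the log2 scale. Filled points were called in both sexes and the dashed line marks equal differences. Of the 149 points, 140 have the same sign on both axes.

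The test of the difference between the sexes itself called 0 probes in limma, with 973 at an unadjusted p under 0.05 and a smallest adjusted p of 0.0844. With limma array weights 3 probes were called. Of the 149 female calls, 39 had an unadjusted p under 0.05 in this test. Car1 differed by -1.33 in females and 0.18 in castrated males, a difference between the sexes of -1.52 ± 0.30 (SE) with an unadjusted p of 1.2e-05 and an adjusted p of 0.141. Cxcl13 differed by 2.09 in females and -0.10 in castrated males, a difference of 2.18 ± 0.61 (SE) with an unadjusted p of 0.00103 and an adjusted p of 0.867. No difference between the sexes thus held after adjustment.

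The probes called in castrated males were then used to place each female. An index was formed for each liver as the mean of the 174 probes higher in castrated males minus the mean of the 104 lower ones. It stood at 0.10, -0.29, 0.48, 0.48 and 0.25 in estradiol females 33 to 37, against -0.43, -0.33, -0.30, -0.29 and -0.72 in placebo females 16 to 20. Animals 33 and 35 to 37 lay well above the placebo group, while animal 34 (-0.286) lay beside the highest placebo liver (-0.291). Intact females lay between -0.59 and -0.34. Ovariectomized females with dihydrotestosterone lay at 0.15, 0.16, 0.14, -0.02 and 0.04, all above the placebo females and 3 of them above estradiol animal 33, so a raised index was not limited to estradiol. Intact males lay between -0.03 and 0.08. Of the 278 probes, 250 (89.9%) differed in the same direction in females, again against 64.2% of all probes.

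**Figure D5:**
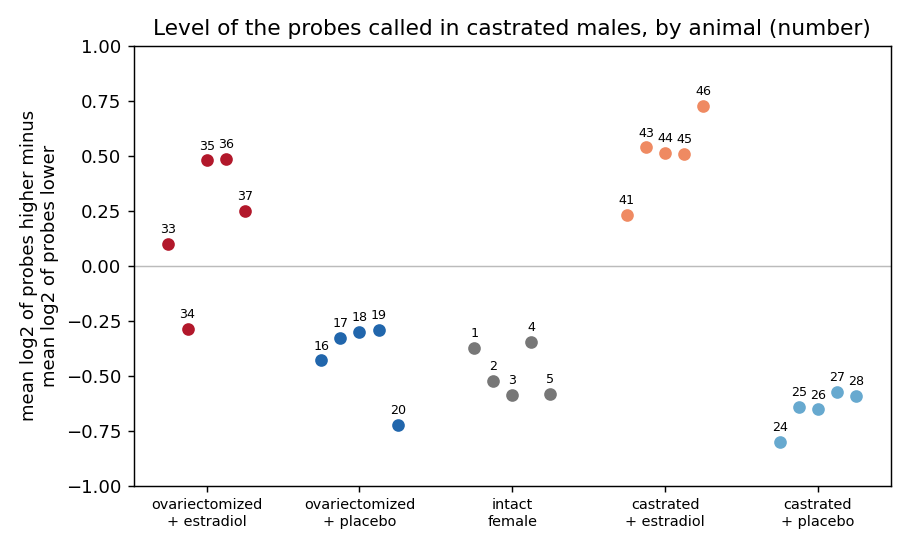
Index of the probes called in castrated males (mean log2 ratio of the 174 higher minus that of the 104 lower) in single animals, numbered, of 5 groups. The 2 groups of castrated males selected the probes and differ by construction. Among the females drawn, estradiol animals 33 and 35 to 37 lie above 0 and animal 34 lies with the placebo animals. Females with dihydrotestosterone, not drawn, lie between -0.02 and 0.16.

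Intact females showed where these levels lie in mice with ovaries. For 97 of the 149 called probes the placebo mean lay inside the range of the 5 intact females, while the estradiol mean lay inside it for 13. For 136 the estradiol mean lay beyond the intact range, on the side away from placebo. Spon1 lay at -1.24 to -0.93 in intact females, close to placebo and below animals 35 to 37, and Gpd2 at 0.15 to 0.80, above all 5 estradiol livers. Car3 lay at -0.83 to -0.30, between the estradiol livers and the placebo livers, and Serpina6 at -0.59 to 0.11, which overlapped the estradiol livers. The 149 probes were selected for a large distance between estradiol and placebo, so these counts are a description.

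The same 5 placebo females also served as the control of ovariectomized females with a dihydrotestosterone pellet, and the values are set side by side for that reason. Treh differed from placebo by 1.32 with estradiol and by 1.40 with dihydrotestosterone (adjusted p = 0.0145), and Serpina3f by 1.00 with estradiol and 1.35 with dihydrotestosterone (adjusted p = 0.00213). Cyp17a1 differed by 1.30 with estradiol and -1.72 with dihydrotestosterone (adjusted p = 0.0423 for the androgen).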

How the data were processed

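Liver RNA of 40 mice was measured on 2-colour arrays. Each liver was in Cy5 and a common liver pool in Cy3, per the labels, so no dye was swapped. The authors deposited 1 table of log10 ratios for 23574 probes, with 0 missing values. Ratios stop at 100-fold, and 29 values lie at that limit. Background correction, normalization and build are not given in the sources used here. Ratios were converted to log2. Array medians ran from -0.0135 to 0.0109 in log10. The model had 8 group means over the 40 arrays (limma 3.58.1 in R 4.3.3, lmFit and eBayes, 32 residual degrees of freedom), with two-sided tests. The labels give no batch, slide or scan date. Signal over background is unknown, so the count of arrays sets the precision. The fit was tested on simulated data in which each probe had the same spread in all groups. That test does not cover the unequal spread seen in the estradiol females.

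Names came from the platform annotation through Entrez identifiers (12662 probes, 10842 genes), and the probe with the largest SD stood for a gene. Named were the 15 highest and 15 lowest called genes without overlap, up to 4 called members of each of 33 lists, and 11 further genes. Members and lists were chosen with earlier results of these data known. On each of the 10 arrays, 49 to 187 probes sat at 1 shared ratio (within 0.001 in log2). Neighbouring ratios on these arrays, counted in steps of 0.001, held a median of 4 to 62 probes. Some probes would thus lie at the shared ratio anyway, and not all of them lack a separate reading there. List members that sat at it on 5 or more of the 10 arrays were Plin2, Acaa1b, Fgl1, Rdh7, Apoe, Apoh, Fbp1, Ahsg, F2, Fgg, Plg, Cfb, Cfi and Mbl2. They still count as measured in their lists. Of the called probes 1 sat at the shared ratio on any array, and of the genes under the naming rule 0 sat at it on 5 or more arrays. The cause was not tested.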

Additional observations from a re-analysis of the deposited data

Results flagged for a closer look

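Within groups of 5, a single animal stood apart where its gap to the nearest other animal exceeded 0.71 of the group's range, which chance alone gives in about 1 in 20 groups. Of 112 groups of values examined, 3 had such an animal, all in placebo females. Treh was -1.47 in animal 17, against -1.23 to -1.18 in the other 4. Ppara was -0.049 in animal 20, against 0.26 to 0.37 in the other 4. The clock index was -0.45 in animal 20, against 0.08 to 0.30 in the other 4.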

How the results depend on the processing

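No paired analysis was possible because the groups share no animal numbers. The count of 149 called probes stayed within 1.5 times with array medians subtracted (136), the clock index as a covariate (135), probes at the limit left out (149), only probes with above-median SD (223), quantile normalization (177) and a robust fit (148). It was 55 with only the compared groups in the fit, 1092 with array weights and 1608 without animals 33 and 34. Leaving out 1 animal gave 22 to 902: 418 without 33, 902 without 34, 23 without 35, 22 without 36 and 23 without 37, and 97, 51, 43, 47 and 87 without placebo animals 16 to 20. In castrated males the count of 278 was 37 with only the compared groups, 753 with array weights, and 69 to 322 without 1 animal, with 69, 144 and 165 without placebo males 24 to 26 and 179 and 84 without estradiol males 45 and 46. The difference between the sexes, 0 probes, was 3 with array weights and 0 to 2 without 1 animal. Of 36 called named genes, 36 kept the call with array weights, 34 with quantile normalization and 11 with only the compared groups, and 0 changed direction in these settings. Those 11 were all lower with estradiol. Uncalled differences near 0 changed sign. The log2 difference of Esr1 was -0.018 with array weights, -0.045 without animals 33 and 34, -0.00023 with the clock index and -0.036 to 0.067 without 1 animal. The log2 difference of Ghr was 0.0040 with array medians subtracted, 0.13 without animals 33 and 34, 0.017 with the clock index and -0.20 to 0.12 without 1 animal. The log2 difference of Hsd3b5 was 0.17 with quantile normalization. The cause of these changes was not tested.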

Other observations

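Several gene lists held no call in limma, and with 0.885% of all named genes called, a count of 0 in lists of this size is near that share. An unadjusted p under 0.05 was found for 2542 of all 23574 probes. Of 17 measured genes of cholesterol synthesis and uptake 0 were called and 1 had an unadjusted p under 0.05, with a median difference of 0.01. Of 25 measured genes of foreign compound metabolism 0 were called and 5 had an unadjusted p under 0.05, all lower, with a median of -0.09. Of 18 measured genes of glucose output and insulin response 0 were called and 5 had an unadjusted p under 0.05, of which 4 were lower, with a median of -0.12. Of 21 cell cycle genes 0 were called and 4 had an unadjusted p under 0.05, of which 3 were higher.

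Other called genes were chosen after their values were seen. Nat8f1, of the N-acetyltransferase 8 family, lay at -0.57 to -0.28 with estradiol and 0.08 to 0.33 with placebo, a difference of -0.65 ± 0.10 (SE) with an adjusted p of 0.00136 in limma. In castrated males it differed by 0.16, and the difference between the sexes had the smallest adjusted p of all probes, 0.0844. Slc10a6, a transporter of steroid sulfates, lay at -0.01 to 0.55 with estradiol and -0.61 to -0.06 with placebo, a difference of 0.72 ± 0.13 (SE) with an adjusted p of 0.00269. Cd207, a lectin of Langerhans cells and other dendritic cells, was -0.19, -0.49, 1.76, 2.16 and 0.81 in estradiol animals 33 to 37, against -0.88 to -0.40 in placebo animals. It had the same order of animals as the macrophage markers at the high end, with 36 above 35 and 35 above 37.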
